A study of Mus musculus with 6 samples.

Results

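The genes described here are 45 mouse genes whose products copy DNA in S phase or supply its nucleotides: the origin recognition complex, the factors that load and start the replicative helicase, the replicative polymerases with their clamp, clamp loader and single strand binding protein, enzymes of deoxynucleotide synthesis, and the replication-linked factors Uhrf1 and Slbp. The rule selects them by gene symbol, and they are 45 of 22771 RefSeq genes with a probe on the array. The array names 40 of them by their present symbol and 5, Orc2 to Orc6, by an older one (Orc2l to Orc6l). They are read by 56 probes, with 1 probe for 35 genes, 2 for 9 genes and 3 for Pole.

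The RNA came from 3T3 cells, a mouse fibroblast line, grown in medium with serum and transfected for 48 h with 50 nM of a GapmeR. A GapmeR is a short antisense oligonucleotide that directs RNase H to cut a chosen transcript. One group received GapmeR Ntep, a single sequence against the long non-coding RNA Ntep, and the other received GapmeR control, a negative control sequence that went through the same transfection. Each group had 3 arrays from 3 independent experiments, and each experiment gave 1 array to each group. The study asked what happens to transcription in fibroblasts when Ntep, which it studied as a regulator of proliferation, is silenced.

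Before a cell divides, the origin recognition complex marks origins, and Cdc6 and Cdt1 load the ring of Mcm2 to Mcm7 onto them in G1. In S phase Cdc45 and the GINS proteins turn that ring into an active helicase, primase and polymerase alpha start each strand, and polymerases delta and epsilon extend it with the sliding clamp PCNA, which the RFC complex loads. Ribonucleotide reductase, thymidylate synthase, thymidine kinase and dUTPase keep the deoxynucleotides in supply. Many of these genes are known targets of E2F factors, which activate them near the G1/S boundary, so their mRNAs are often read together as an S phase signature.

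The probes behind the statements on which most depends are shown first, because genes with more than 1 probe did not always give the same answer. Each probe has 60 bases, of which the first 30 are printed from 5′ to 3′ in the sense of the mRNA, with mm9 positions. For Prim2 the brightest probe lies at chr1:33510733-33510792 and the dimmer one at chr1:33535912-33535971, both on the minus strand.
Prim2, brightest probe: ggaaaggaagcattcctattgaaactgtta
Prim2, dimmer probe: taaaaagtttcctataaaagttctctaaga
For Cdc6 the brightest probe lies at chr11:98782986-98783045 and the dimmer one at chr11:98785169-98785228, both on the plus strand.
Cdc6, brightest probe: tgtaaagaactttgaagtttagaaggatga
Cdc6, dimmer probe: ttaagaaccagattaagtttccatagtgtc
For Rpa1 the brightest probe lies at chr11:75113898-75113957 and the dimmer one at chr11:75114060-75114119, both on the minus strand.
Rpa1, brightest probe: ccaggcggacctgtgtacctttattaaagc
Rpa1, dimmer probe: cttcattatccacatagtggggtcagttac
The Mcm3 probes overlap by 43 bases and differ by 1 base within them, G14A, counted from the 5′ end of the brightest probe and set in capitals here. The brightest lies at chr1:20793119-20793178 and the dimmer at chr1:20793136-20793195 on the minus strand, and for the dimmer one bases 18 to 47 are printed.
Mcm3, brightest probe: aagctttctttgcGattagactagtatgta
Mcm3, dimmer probe: aagctttctttgcAattagactagtatgta

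Of the 45 genes, 37 have a promoter in RefSeq's table for GRCm38.p6, taken as 250 bases before to 50 bases after the transcription start. These windows were searched on both strands for 4 forms of the E2F motif, TTTGGCGC, TTTCCCGC, TTTGCCGC and TTTCGCGC, and for the CCAAT box, the motif of NF-Y. A gene with several starts in the table counted as holding a motif if any of its windows did, so both motifs need not share a window. An E2F form was found in 14 of the 37 genes (37.8%), against 704 of all 27025 genes with a promoter in the table (2.6%). A CCAAT box was found in 24 of the 37 (64.9%), against 41.1% of all genes, and both motifs in 8 (21.6%), against 1.26%. A match is a run of letters and not a measured binding site. The 14 genes with an E2F form had a median log2 difference (GapmeR Ntep minus GapmeR control) of −0.07, 7 being lower and 7 higher. The 23 without one had a median of 0.14, with 7 lower and 16 higher. The 24 genes with a CCAAT box had a median of 0.23, with 5 lower and 19 higher, and the 13 without one a median of −0.13, with 9 lower and 4 higher. These splits were not tested.

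Mcm5 and Mcm6 are printed since both hold both motifs while their mean differences had opposite signs. Cdc6 and Uhrf1 are printed as the E2F-motif genes named at both ends of the results. Where a gene had several windows, the window with the most E2F forms is printed. Motifs are in capitals, overlapping ones run together, and the sequences run 5′ to 3′ in the direction of transcription. They lie at chr8:75109259-75109558 (plus strand) for Mcm5, chr1:128359656-128359955 (minus strand) for Mcm6, chr11:98907901-98908200 (plus strand) for Cdc6 and chr17:56304063-56304362 (plus strand) for Uhrf1, all in GRCm38.p6.
Mcm5: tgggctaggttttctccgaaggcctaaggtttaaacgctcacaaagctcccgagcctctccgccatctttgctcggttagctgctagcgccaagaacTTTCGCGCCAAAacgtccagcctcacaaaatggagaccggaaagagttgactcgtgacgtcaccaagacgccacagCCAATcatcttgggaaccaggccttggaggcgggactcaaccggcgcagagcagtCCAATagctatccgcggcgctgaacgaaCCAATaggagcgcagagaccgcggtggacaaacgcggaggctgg
Mcm6: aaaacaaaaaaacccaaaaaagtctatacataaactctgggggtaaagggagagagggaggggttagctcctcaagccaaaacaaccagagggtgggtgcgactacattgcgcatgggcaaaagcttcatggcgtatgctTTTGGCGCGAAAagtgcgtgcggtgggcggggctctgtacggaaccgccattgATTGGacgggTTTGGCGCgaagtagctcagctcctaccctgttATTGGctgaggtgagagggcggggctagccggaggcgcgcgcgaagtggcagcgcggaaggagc
Cdc6: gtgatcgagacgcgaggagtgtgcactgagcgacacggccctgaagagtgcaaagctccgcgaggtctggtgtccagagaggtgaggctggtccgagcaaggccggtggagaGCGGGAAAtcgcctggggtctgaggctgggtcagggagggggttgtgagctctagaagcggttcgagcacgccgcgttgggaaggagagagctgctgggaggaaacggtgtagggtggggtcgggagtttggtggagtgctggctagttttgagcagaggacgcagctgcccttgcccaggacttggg
Uhrf1: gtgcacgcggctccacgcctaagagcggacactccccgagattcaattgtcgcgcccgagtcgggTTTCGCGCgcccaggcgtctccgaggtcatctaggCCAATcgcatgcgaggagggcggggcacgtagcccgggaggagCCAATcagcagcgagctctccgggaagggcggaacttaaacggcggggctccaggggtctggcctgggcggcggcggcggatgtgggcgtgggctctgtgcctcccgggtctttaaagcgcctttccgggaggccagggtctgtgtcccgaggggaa
Mcm5 held 2 overlapping E2F forms and 3 CCAAT boxes, Mcm6 held 3 E2F forms and 2 CCAAT boxes, Cdc6 held 1 E2F form 138 bases before the start and no CCAAT box, and Uhrf1 held 1 E2F form and 2 CCAAT boxes.

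Values are quantile-normalized fluorescence intensities in arbitrary units, listed for experiments 1 to 3, and a gene is represented by its brightest probe over the 6 arrays. Intensities of different probes are not compared with each other. A log2 difference is GapmeR Ntep minus GapmeR control, with its standard error (SE) and an adjusted p from limma and the Benjamini-Hochberg method, applied to all 30990 probes tested. Well above background were 43.7% to 53.3% of all probes per array, and no probe spot was saturated. All 45 genes passed the limit for testing, and all 45 were well above background on all 6 arrays, against 12314 of the 15126 genes tested.

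The probe for the targeted transcript (A630089N07Rik) read 472, 91.5 and 226 on the arrays labelled GapmeR Ntep and 271, 272 and 361 on the control arrays. It was lower in experiments 2 and 3 and higher in experiment 1, with a log2 difference of −0.48 (SE 0.58, adjusted p = 0.632). In experiment 1 this probe therefore did not show the decrease that the label implies, and directions below are those of the arrays as labelled. The paper reports, from qPCR, that this GapmeR silenced Ntep in the same cell line. Silencing in the cultures of these arrays was not tested here other than by this probe. Arrays were also correlated over the log2 values of all tested probes. The GapmeR Ntep array of experiment 1 had a mean correlation of 0.962 with its own group and 0.935 with the control arrays. These values were 0.971 and 0.972 for the GapmeR Ntep array of experiment 2, and 0.972 and 0.961 for that of experiment 3. Among the GapmeR Ntep arrays, that of experiment 1 was thus the least like the control arrays, and that of experiment 2 the most like them.

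The replication genes as a whole did not move one way. By their brightest probes on the arrays labelled GapmeR Ntep 17 of the 45 were lower and 28 higher in the mean, and the median log2 difference was 0.07, against 0.00 over all genes tested. In the unpaired test Prim2, which encodes the large subunit of primase, was the only gene of the 45 that fell after adjustment. That is 1 of 45 lower, where 3.66% of all genes tested were lower after adjustment, and 0 of 45 higher, where 2.35% were. With the experiments as blocks in limma, Orc3 was lower as well (adjusted p = 0.0494). At an unadjusted p under 0.05 there were 4 lower genes, Prim2, Pole, Uhrf1 and Tk1 (15.1% of all genes tested), and 4 higher genes, Rpa2, Rfc1, Rrm1 and Mcm10 (12.9%).

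By the brightest probes, Prim2 was also the only one of the 45 lower by at least 2-fold with an unadjusted p under 0.01 (5.92% of all genes). No gene was higher by that rule (3.21%). With any probe of a gene counted, Orc3 was lower and Cdc6 higher as well by that rule, each through its dimmer probe. That Cdc6 probe also passed after adjustment. The shares of all genes are by the brightest probe. The groups did not overlap in 6 genes that were lower (18.4% of all genes) and in 7 that were higher (17.7%). The direction was the same in all 3 experiments for 14 lower genes (31.8% of all genes) and 14 higher genes (31.2%). The differences were small for most: 32 of the 45 genes (71.1%) lay within 0.5 of 0 on the log2 scale, against 8471 of the 15126 genes tested, and 1 (2.22%) lay past 1, against 18.6%. The middle range from the 5th to the 95th percentile ran from −0.93 to 0.57 in the 45 genes and from −1.50 to 1.17 in all genes. The 45 genes and all genes were not matched for intensity. All 45 were well above background on all 6 arrays, against 12314 of the 15126 genes tested.

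**Figure D1:**
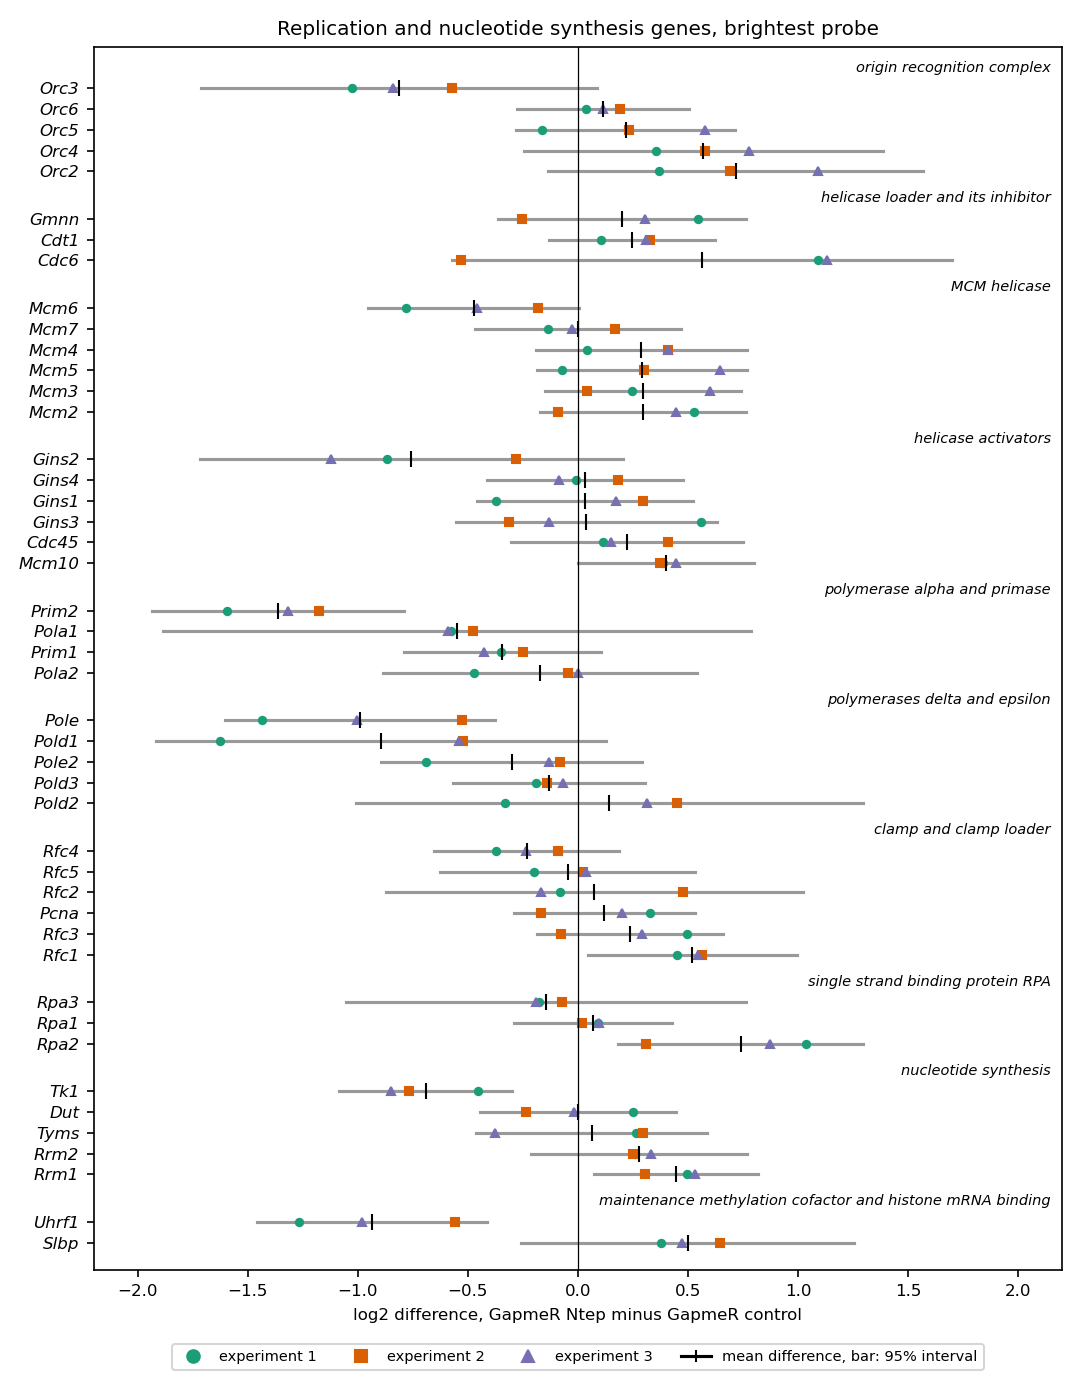
Log2 difference of each gene (x axis, GapmeR Ntep minus GapmeR control, brightest probe), grouped by role. Coloured points are the 3 experiments, the black tick is the mean and the grey bar its 95% confidence interval; only the Prim2, Pole, Uhrf1 and Tk1 intervals lie wholly below 0, and those of Rpa2, Rfc1, Rrm1 and, barely, Mcm10 wholly above it.

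By role, the primase and polymerase alpha genes had a median log2 difference of −0.45, and all 4 had a negative mean difference. With arrays scaled to their 75th percentile, where the median of all genes was 0.14, the median of these 4 was −0.35. These 4 proteins work as 1 complex that lays down the RNA-DNA primer for every new strand. Prim2 read 3875, 6237 and 5656 on the GapmeR Ntep arrays and 11714, 14101 and 14109 on the control arrays. Every GapmeR Ntep array was below every control array. The log2 difference was −1.36 (SE 0.23, 95% confidence interval −1.94 to −0.79, 3 arrays per group, limma adjusted p = 0.0362), a 2.57-fold decrease. It was −1.60, −1.18 and −1.32 in the 3 experiments.

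The dimmer Prim2 probe read 117, 231 and 198 with GapmeR Ntep and 334, 347 and 256 with control, again without overlap, and its log2 difference was −0.82 (SE 0.30, adjusted p = 0.163). The call for Prim2 was narrow. It held without GapmeR Ntep replicate 2 (adjusted p = 0.0474), and leaving out any of the other 5 arrays took it past the limit: 0.0589 without GapmeR Ntep replicate 1, 0.113 without GapmeR Ntep replicate 3, and 0.0679, 0.157 and 0.145 without control replicates 1, 2 and 3. Its log2 difference stayed between −1.50 and −1.16 in these fits.

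Prim1, the catalytic subunit of primase, read 27758, 35794 and 31576 with GapmeR Ntep and 35372, 42621 and 42493 with control. It was lower within each experiment, but the groups overlapped, and the log2 difference was −0.34 (SE 0.18, adjusted p = 0.303). Pola1, the catalytic subunit of polymerase alpha, was lower by a similar amount in each experiment, −0.58, −0.48 and −0.59, yet its level was 2207 and 3295 in experiment 1 against 5616 to 8456 in the others, so the unpaired SE was 0.55 and the adjusted p 0.560. Pola2, the accessory subunit, read 1308, 2423 and 2267 with GapmeR Ntep and 1815, 2504 and 2265 with control, a log2 difference of −0.17 (SE 0.29, adjusted p = 0.738). Without GapmeR Ntep replicate 1 the Pola2 difference was 0.11.

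The polymerases that extend the strands had a median log2 difference of −0.30 over 5 genes, and of −0.11 without experiment 1. Pole, the catalytic subunit of polymerase epsilon, which copies the leading strand, read 7706, 13918 and 11215 with GapmeR Ntep and 20840, 20080 and 22512 with control. The groups were well apart, and the log2 difference was −0.99 (SE 0.25, 95% confidence interval −1.60 to −0.38, adjusted p = 0.0764). A dimmer Pole probe gave −0.26 (adjusted p = 0.461), and the third Pole probe was not above background on any array and was not tested. Pold1, the catalytic subunit of polymerase delta, read 7910, 21661 and 20570 with GapmeR Ntep and 24454, 31104 and 29909 with control. The groups did not overlap. The difference was −1.63 in experiment 1 and −0.52 and −0.54 in the others, with a mean of −0.90 (SE 0.42, adjusted p = 0.249).

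Of the accessory subunits, Pole2 had a log2 difference of −0.30 and Pold3 of −0.13, both negative in each experiment and neither past the test (adjusted p = 0.483 and 0.672). Pold2 was the 1 positive value of this role, at 0.14 (SE 0.47, adjusted p = 0.873), and it read 2539, 7445 and 6643 with GapmeR Ntep and 3196, 5455 and 5350 with control. Its groups overlapped widely, and its sign changed when single arrays were left out, with values from −0.14 to 0.63.

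**Figure D2:**
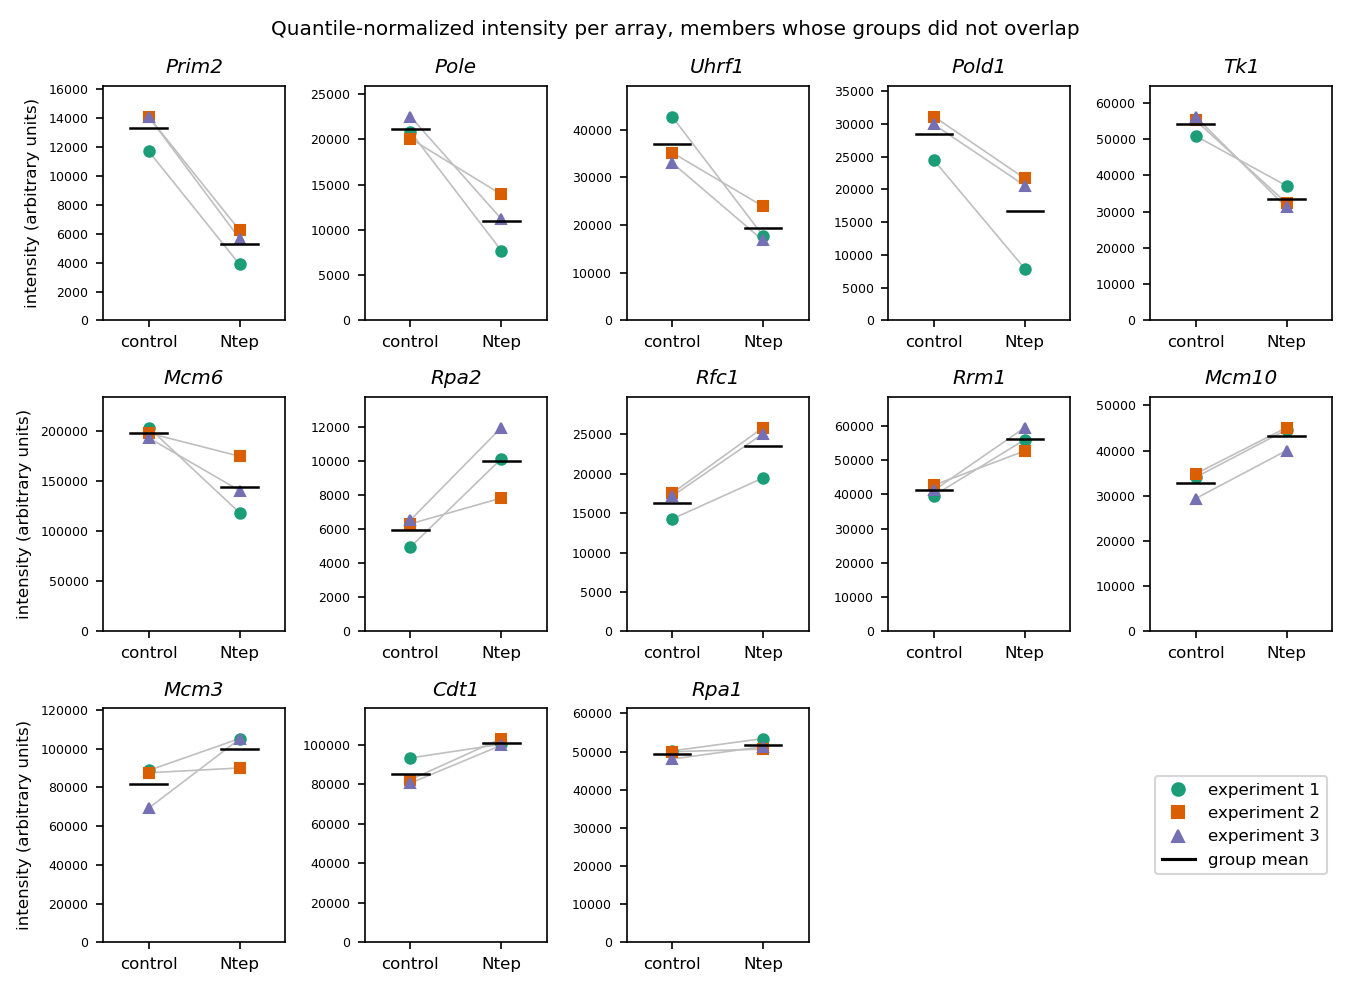
Quantile-normalized intensity (y axis, arbitrary units, from 0) of the 13 genes whose groups did not overlap, for GapmeR control and GapmeR Ntep arrays; lines join the arrays of 1 experiment and black bars are group means. The first 6 panels are lower with GapmeR Ntep and the other 7 higher, and the separation runs from a 2.57-fold difference for Prim2 to 1.05-fold for Rpa1.

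The origin recognition complex, which marks the sites where the helicase is loaded, gave the widest range within a role. Orc3 read 10398, 22878 and 19404 with GapmeR Ntep and 21200, 33988 and 34749 with control. It was lower in every experiment, by −1.03, −0.57 and −0.84, while the 2 groups overlapped because both arrays of experiment 1 were low. The log2 difference was −0.81 (SE 0.37, adjusted p = 0.236). With the experiments as blocks the adjusted p was 0.0494, so that the count of lower genes after adjustment was 2, Orc3 and Prim2. The dimmer Orc3 probe read only 120, 272 and 171 with GapmeR Ntep and 333, 517 and 608 with control. It gave −1.41 (SE 0.38, adjusted p = 0.0852), which passed the study's limit of 2-fold and an unadjusted p under 0.01.

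Orc2 read 5580, 3374 and 5340 with GapmeR Ntep and 4325, 2090 and 2505 with control, higher in every experiment with a log2 difference of 0.72 (SE 0.35, 95% confidence interval −0.13 to 1.57, adjusted p = 0.264). Orc4 gave 0.57 by its brightest probe and −0.20 by its dimmer one, so its 2 probes differed in sign (adjusted p = 0.344 and 0.622). Orc5 and Orc6 differed by 0.22 and 0.11 (adjusted p = 0.538 and 0.681). By their brightest probes none of the 5 passed either limit in the unpaired test.

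The loading factors Cdc6 and Cdt1 and the Cdt1 inhibitor geminin (Gmnn) all had positive mean differences. The Cdc6 probes did not give the same picture. The brightest read 2143, 669 and 2006 with GapmeR Ntep and 1005, 968 and 915 with control, so that it was higher in experiments 1 and 3 and lower in experiment 2, with a log2 difference of 0.56 (SE 0.47, adjusted p = 0.484). The dimmer read 1808, 1544 and 1508 with GapmeR Ntep and 812, 765 and 747 with control, with all arrays of one group above all of the other. By that probe Cdc6 rose, with a log2 difference of 1.06 (SE 0.16, adjusted p = 0.0307). Without GapmeR Ntep replicate 2 the brightest probe gave 1.11 (adjusted p = 0.0446), and in the other fits that left out 1 array it stayed between 0.27 and 0.60.

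Cdt1 read 100140, 103003 and 99612 with GapmeR Ntep and 93221, 82174 and 80508 with control. Its groups did not overlap, but the log2 difference was only 0.25 (SE 0.15, adjusted p = 0.376). Gmnn, which blocks Cdt1 after the start of S phase, read 22345, 14874 and 23110 with GapmeR Ntep and 15286, 17751 and 18695 with control, a log2 difference of 0.20 (SE 0.23, adjusted p = 0.617). Like the brightest Cdc6 probe, it was higher in experiments 1 and 3 and lower in experiment 2.

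Of the MCM genes, which encode the helicase ring, 4 had almost the same mean difference. Mcm2, Mcm3, Mcm4 and Mcm5 had log2 differences of 0.30, 0.30, 0.29 and 0.29, with adjusted p from 0.367 to 0.411. In the 3 experiments Mcm2 differed by 0.53, −0.09 and 0.45 and Mcm5 by −0.07, 0.30 and 0.65, so both changed sign. Mcm3 (0.25, 0.04 and 0.60) and Mcm4 (0.04, 0.41 and 0.41) were higher in each experiment. Mcm2 read 18445, 14301 and 19474 with GapmeR Ntep and 12788, 15208 and 14287 with control (SE 0.19, 95% confidence interval −0.17 to 0.76). The 2 overlapping Mcm3 probes gave 0.30 and 0.35. Mcm7 had a mean difference of 0.00, with a 95% confidence interval from −0.47 to 0.47.

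Mcm6 was the exception in sign within the ring. It read 118376, 174806 and 140571 with GapmeR Ntep and 203423, 197962 and 193195 with control, and all 3 GapmeR Ntep arrays were below all control arrays. The log2 difference was −0.47 (SE 0.20, adjusted p = 0.205), so the spread between arrays left it short of the limit. The difference between Mcm6 and the other MCM genes was not tested.

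Among the helicase activators, Mcm10, which joins the helicase when it starts to unwind, read 44593, 45082 and 40010 with GapmeR Ntep and 34081, 34845 and 29368 with control. Its differences in the 3 experiments were close to each other, 0.39, 0.37 and 0.45, and the mean was 0.40 (SE 0.16, adjusted p = 0.198). Gins2 read 2195, 5434 and 3004 with GapmeR Ntep and 4004, 6610 and 6532 with control, a log2 difference of −0.76 (SE 0.39, adjusted p = 0.292). The other GINS genes, whose products form a complex with Gins2, were near 0: Gins1, Gins3 and Gins4 had log2 differences of 0.03, 0.04 and 0.03. Cdc45 differed by 0.22 (adjusted p = 0.548).

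In the clamp loader, the largest difference was that of Rfc1, the large subunit. It read 19449, 25832 and 25056 with GapmeR Ntep and 14241, 17500 and 17141 with control. The groups did not overlap, and the log2 difference was 0.52 (SE 0.19, adjusted p = 0.170), alike in the 3 experiments (0.45, 0.56 and 0.55). Rfc4 read 48922, 63721 and 56332 with GapmeR Ntep and 63329, 67825 and 66362 with control, a log2 difference of −0.23 (SE 0.17, adjusted p = 0.444), while its dimmer probe gave −0.00. Rfc2, Rfc3 and Rfc5 lay between −0.05 and 0.24. Pcna, the sliding clamp and a common proliferation marker, read 138569, 113187 and 130128 with GapmeR Ntep and 110396, 127087 and 113405 with control, a log2 difference of 0.12 (95% confidence interval −0.29 to 0.53, adjusted p = 0.684).

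RPA, the trimer that coats single strands at forks and in repair, was higher in 1 subunit by a margin that missed the limit. Rpa2 read 10137, 7829 and 11966 with GapmeR Ntep and 4949, 6316 and 6534 with control. All GapmeR Ntep arrays were above all control arrays, and the log2 difference was 0.74 (SE 0.23, 95% confidence interval 0.18 to 1.30, adjusted p = 0.116). Rpa1, the large subunit, was nearly level by its brightest probe, at 0.07 (SE 0.15, adjusted p = 0.798). The dimmer Rpa1 probe read 12796, 15278 and 14230 with GapmeR Ntep and 9192, 8838 and 7382 with control, a log2 difference of 0.74 (SE 0.18, adjusted p = 0.0669). These probes lie close together in the gene and do not give the same size of difference. Rpa3, the small subunit, read 43201, 86370 and 76693 with GapmeR Ntep and 48832, 90760 and 87437 with control, −0.15 (SE 0.37, adjusted p = 0.833), and 0.05 when arrays were scaled to their 75th percentile.

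**Figure D3:**
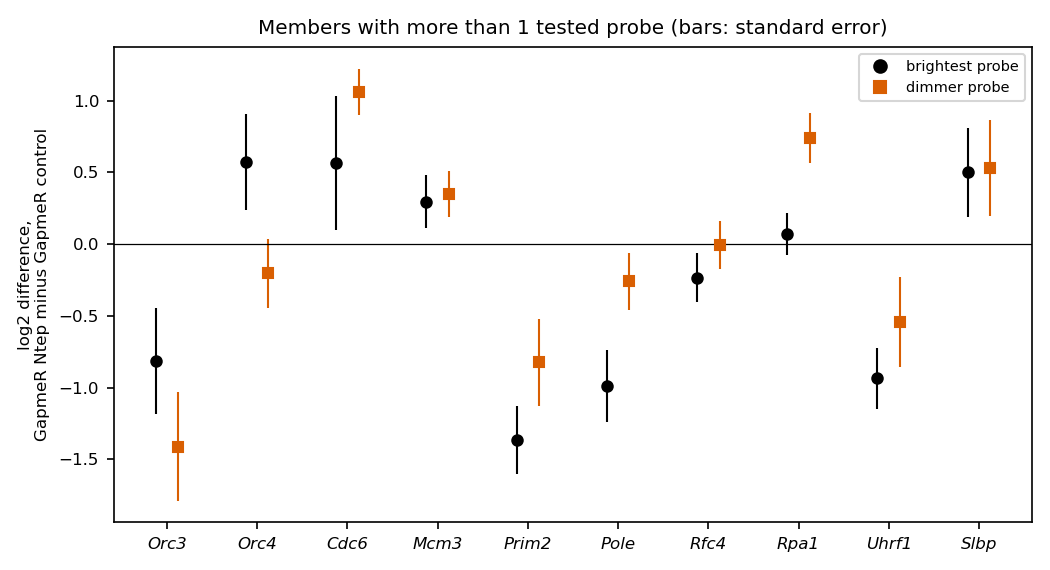
Log2 difference (y axis, GapmeR Ntep minus GapmeR control) with its standard error for the 10 genes with more than 1 tested probe, the brightest probe as a black circle and the dimmer as an orange square. The Prim2, Orc3, Pole and Uhrf1 probes are all below 0, the Orc4 probes lie on either side of it, and the Cdc6 and Rpa1 pairs differ in size.

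The enzymes that make deoxynucleotides had differences in both directions. Tk1, thymidine kinase of the salvage pathway, read 37128, 32371 and 31160 with GapmeR Ntep and 50906, 55176 and 56226 with control. The groups were far apart, and the log2 difference was −0.69 (SE 0.16, 95% confidence interval −1.09 to −0.30, adjusted p = 0.0644). Rrm1, the large subunit of ribonucleotide reductase, went the other way, with 55998, 52705 and 59505 against 39673, 42682 and 41172, without overlap and with a log2 difference of 0.44 (SE 0.15, adjusted p = 0.143). Rrm2, its regulated small subunit, differed by 0.28 (adjusted p = 0.433), with 0.26, 0.25 and 0.33 in the 3 experiments. Tyms, thymidylate synthase, and Dut, dUTPase, differed by 0.06 and −0.00, with 95% confidence intervals of −0.46 to 0.59 and −0.45 to 0.44.

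Uhrf1, which recruits the maintenance methyltransferase to newly copied DNA, read 17744, 23898 and 16756 with GapmeR Ntep and 42717, 35169 and 33046 with control. Every GapmeR Ntep array was below every control array, and the log2 difference was −0.93 (SE 0.21, 95% confidence interval −1.46 to −0.41, adjusted p = 0.0621). The dimmer Uhrf1 probe read only 87.3, 130 and 145 with GapmeR Ntep and 120, 214 and 199 with control, and gave −0.54 (adjusted p = 0.338). Slbp, which binds the stem loop of histone mRNAs in S phase, read 23414, 16566 and 14249 with GapmeR Ntep and 18014, 10585 and 10268 with control, higher in every experiment though the groups overlapped. Its 2 probes gave 0.50 (SE 0.31, adjusted p = 0.368) and 0.53 (adjusted p = 0.377).

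Pole, Uhrf1 and Tk1 lay just outside the adjusted limit, and whether they passed turned on the background correction, the filter and the variance model. With arrays scaled to their 75th percentile they lay further out, with limma adjusted p of 0.100, 0.106 and 0.206. With the methods' unpaired t-test the values were 0.138, 0.104 and 0.0625. The limma adjusted p of Pole, Uhrf1 and Tk1 were 0.0479, 0.0433 and 0.0226 with another background correction, and 0.0428, 0.0282 and 0.0210 where the variance was allowed to follow the intensity. Where less reliable arrays were given lower weights, 8 genes were lower and 7 higher after adjustment, and with the methods' unpaired t-test 0 were in either direction, Prim2 having an adjusted p of 0.0815.

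Other genes of replication, nucleotide metabolism and the cell cycle gave few calls. Of 34 other replication genes, 0 were lower (3.66% of all genes) and 1 was higher (2.35%) after adjustment: Orc1, the cell-cycle-regulated subunit of the origin recognition complex, rose by 1.12 (SE 0.23, adjusted p = 0.0497). By the limit of 2-fold and p under 0.01, 2 were lower, Rnaseh2c and Topbp1 (5.92% of all genes), and 1 was higher, Orc1 (3.21%). The largest others were Rnaseh2c, a subunit of RNase H2, at −1.46 (adjusted p = 0.0636), Chtf18, part of an alternative clamp loader, at −1.40 (adjusted p = 0.151), and Topbp1, a helicase-assembly and checkpoint factor, at −1.10 (adjusted p = 0.0710). The list had a median of 0.04, with 16 lower and 18 higher. Of 25 other nucleotide metabolism genes none passed either limit in either direction. The largest were Rrm2b at −1.04, Cad at 0.83, Samhd1 at −0.79 and Adsl at 0.64, with adjusted p from 0.0536 to 0.202, and the median was −0.01. Of these, Rrm2b and Cad were dim. Rrm2b read 46.1 to 172 over all arrays and was well above background on 5 of them, and Cad read 89.7 to 230.

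Of 12 E2F and G1/S genes, 11 were tested and none passed either limit; the median was 0.29, with 3 lower and 8 higher. E2f8 and Cdc25a were the largest, at 0.99 and 0.79 (adjusted p = 0.0702 and 0.176), followed by E2f1 at −0.46 and E2f2 at 0.46. Of 22 G2/M genes, 21 were tested and none passed either limit, with 7 lower and 14 higher and a median of 0.17. Mki67 differed by −0.84 (adjusted p = 0.128), and Plk1, Tpx2 and Bub1b by 0.66, 0.66 and 0.65 (adjusted p = 0.0993, 0.0695 and 0.130). At an unadjusted p under 0.05, where 15.1% of all genes tested were lower and 12.9% higher, the counts were 6 lower and 8 higher of 34 other replication genes, 2 and 6 of 25 other nucleotide genes, 0 and 3 of 11 E2F and G1/S genes, and 2 and 5 of 21 G2/M genes. In cells in culture a different share of cells in S phase and a different amount of mRNA per cell cannot be told apart from these values.

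**Figure D4:**
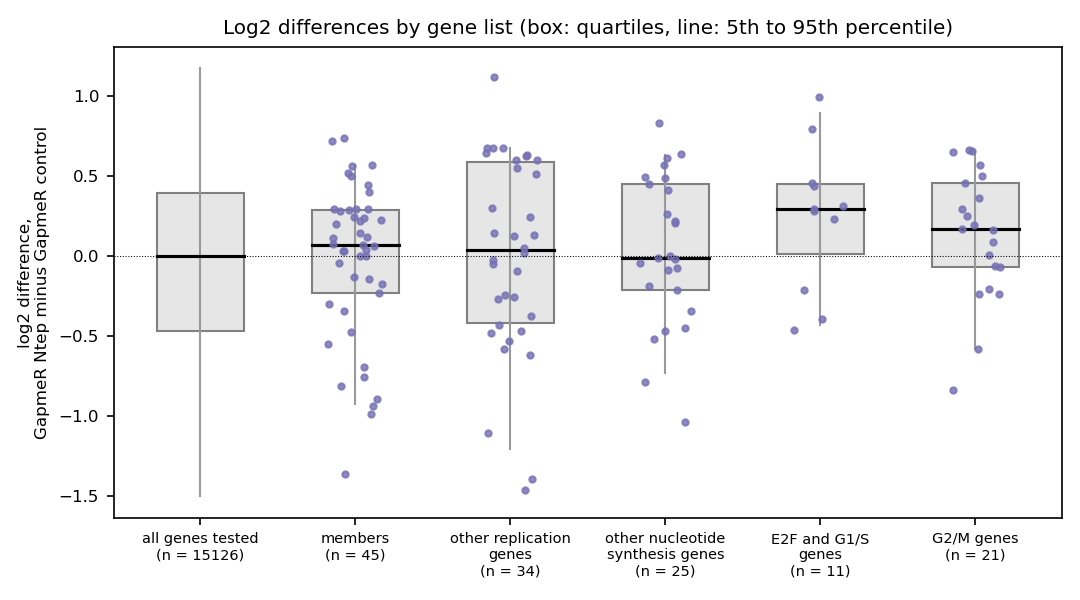
Log2 differences (y axis, GapmeR Ntep minus GapmeR control) of the 45 genes, shown as members, and of 4 other lists beside all 15126 genes tested. The list labelled other nucleotide synthesis genes is that of the other nucleotide metabolism genes. Points are genes, boxes the quartiles, thick lines the medians and thin lines the 5th to 95th percentile; the medians of the 45 genes and of all genes are 0.07 and 0.00, and the lists scatter on both sides of 0.

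Markers of cell type were checked on the same arrays. All 12 fibroblast markers were well above background on all 6 arrays, with 10 lower and 2 higher by their means, and a summed intensity of 598883 to 790879 with GapmeR Ntep and 858710 to 946016 with control. None passed after adjustment, and Prrx1 was lower by the limit of 2-fold and p under 0.01, at −1.85 (adjusted p = 0.0582). Of 12 macrophage markers, 6 were at background on every array, among them the defining Adgre1 and Ptprc. The list summed to 43072 to 75472 with GapmeR Ntep and 21165 to 27815 with control, of which the Itgam probe gave 19443 to 45777 and 10652 to 14655. Cd68 rose by 1.21 (adjusted p = 0.0287), and Cd14, at 1.11 (adjusted p = 0.0627), was also past 2-fold and p under 0.01. Of the other 4 tested, Itgam and Csf1r were at 1.26 and 3.19 and Aif1 at −1.28, each in the same direction in all 3 experiments, and Lyz2 at −0.18 (adjusted p from 0.0881 to 0.746). Of 6 epithelial markers 3 were above background on all arrays. By their means 1 was lower and 5 higher, and none passed either limit. The largest was Krt18 at 1.56 (SE 0.61, adjusted p = 0.185), higher in all 3 experiments. The list summed to 5985 to 7735 with GapmeR Ntep and 4441 to 6979 with control. The part of these differences in the values of the replication genes was not tested.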

How the data were processed

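Total RNA from 6 cultures was hybridised to 1-colour Agilent mouse arrays (probe positions in mm9), all on 1 slide. The paper names the array as Mouse GE 4x180K, while each deposited array has 62976 spots. The authors extracted the scans with Agilent Feature Extraction 10.7.3.1 and deposited background-subtracted intensity values per spot, and also a table of quantile-normalized intensity values with values under 20 set to 20. Here spots of a probe were averaged, the intensities quantile normalized, values under 20 set to 20, and the log2 values compared, unpaired, in R 4.3.3 by limma 3.58.1 where the brighter group averaged 50 or more. Tests were two-sided, with Benjamini-Hochberg adjustment over 30990 probes (15126 genes); the variance prior was estimated on these probes. The limits are those of the study (2-fold, unadjusted p under 0.01) and an adjusted p under 0.05. Probes were named through RefSeq symbols and older symbols (31020 probes, 22771 genes); where in the transcript a probe lies was not examined. The code was tested on simulated data.

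The genes and lists were chosen with earlier results of these data known. Full statistics are given for genes past either limit and, in each role, those with the largest and smallest log2 difference; of other lists, up to 4 genes by size. Residuals of arrays of 1 experiment, paired by the study's documentation, had correlations of 0.466, 0.300 and 0.254. Arrays of different experiments lay between −0.327 and 0.126, so experiments were also fitted as blocks. The number of arrays limits the precision, and 3 against 3 arrays cannot give an exact permutation p under 0.1. Alternatives covered scaling, background correction, filters, floor, variance model, probe choice and left-out arrays.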

Additional observations from a re-analysis of the deposited data

How the results depend on the processing

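The counts rest on 3 arrays per group and on differences near the spread between arrays, and most alternatives moved a few genes across the adjusted limit. Against 1 lower and 0 higher genes after adjustment, there were 4 lower with normexp background correction, 4 when only probes well above background on all arrays were kept, 3 with an intensity limit of 100, 2 with the replicate block, 0 with no filter on dim probes and 0 with the methods' t-test. An intensity trend in the variance gave 4 lower and 1 higher, array weights 8 lower and 7 higher, with 1 higher past 2-fold and p 0.01. The call by any probe of a gene gave 1 higher gene after adjustment, and 2 lower and 1 higher past 2-fold and p 0.01. A variance prior over all probes, chosen after seeing the data, gave 2 lower and 1 higher. Without single arrays the counts ran from 0 to 1 lower and 0 to 1 higher after adjustment, and from 1 to 3 lower and 0 to 1 higher past 2-fold and p 0.01; 3 lower and 1 higher came without GapmeR Ntep replicate 2. Without experiment 1, also chosen after seeing the data, the counts were those of the full set, while the median of the polymerase delta and epsilon genes went from −0.30 to −0.11 and that of the nucleotide synthesis genes from 0.06 to −0.04. Scaling to the 75th percentile raised the median of the 45 genes to 0.21 and that of all genes to 0.14, and Rpa3 to 0.053. Without single arrays Pola2 ranged from −0.34 to 0.11, Pold2 from −0.14 to 0.63 and Rpa3 from −0.43 to 0.16. The replicate block changed no other call than that of Orc3. It did lower the limma adjusted p of other genes without taking them past the limit. Among these were Rfc1 (0.0743), Orc2 (0.0843), Slbp (0.0895) and Gins2 (0.0915). The causes were not tested.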
